A study of Homo sapiens with 96 samples.

Results

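The LSD1 inhibitor given alone to the leukaemia line Kasumi1 is described here from 8 of the study's 96 RNA-seq libraries. They are all Kasumi1 libraries whose labels name 552A or DMSO, with 2 replicates at day 2 and 2 at day 4 for each treatment. The study as a whole covered 6 acute myeloid leukaemia (AML) lines under vehicle, the inhibitor, all-trans retinoic acid (ATRA), or the pair combined. Per the labels' protocols, vehicle cells received 0.1% DMSO and inhibitor cells 1 µM GSK2879552, and at least 10 M cells were lysed in TRIzol after 2 or 4 days for total RNA libraries. No label spells out 552A; it was taken to be GSK2879552, whose name ends in the same digits and whose arm alone remains once DMSO, ATRA and Combo are assigned. Kasumi1 is 1 established line that carries the RUNX1-RUNX1T1 fusion, so the comparison speaks of this leukaemia only. The labels do not say that replicates were separate cultures, so the p-values cover no more than library-to-library spread, part or all of which may be technical.

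LSD1, encoded by KDM1A, is a demethylase of histone tails that works inside the CoREST repressor complex together with histone deacetylases. In blood cells the zinc finger repressors GFI1 and GFI1B bring it to the enhancers of myeloid genes through a short domain called SNAG, and inhibitors of this class both block the enzyme and loosen its hold on GFI1. In AML cells such compounds are known for raising myeloid surface markers such as CD86 and CD11b, and the comparison asks which genes the compound alone changes in a line driven by RUNX1-RUNX1T1.

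The 8 libraries held 20.63 to 33.77 M counts, and mitochondrially encoded genes took 0.549 to 2.706% of them. Levels are given below as CPM, counts scaled to a TMM-adjusted library size of 1 M, and within each pair of values the first is replicate 1. Replicates of each group differed by more than sampling noise, with a chi-square per degree of freedom of 11.3 to 54.2. Part of that difference followed gene GC content: the slope of a library against the mean of the 16 Kasumi1 libraries was 0.06 to 0.15 in log2 per 10% GC in the 4 DMSO libraries. It was -0.24 and 0.10 in the day 2 552A libraries and -0.10 and 0.08 in those of day 4, so replicate 1 of each 552A pair stood apart on this trend.

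The defining genes of the line were checked first. RUNX1T1, the fusion partner that other lines hardly transcribe, had 108 to 135 CPM in the DMSO libraries and 97.4 to 160 in the 552A libraries, against at most 0.355 CPM in the DMSO libraries of the other 5 lines. CD34, KIT and MPO were also high, while 2 genes often named in this AML subtype were low, POU4F1 at 0.0471 to 1.02 CPM and PRAME at 1.49 to 2.51 CPM. Several defining genes of other cells were at or near 0: CD14 and CD163 of monocytes did not pass 0.0922 CPM, LTF and CAMP of mature neutrophils 0.0569 CPM, and MS4A2, CLC, HBA1, HBB, PF4, MS4A1 and COL1A2 had no count. Other members of the monocyte and neutrophil marker sets were expressed. Over the 8 libraries CSF1R had 9.44 to 37.7 CPM and FCGR1A 15.4 to 30 CPM. CSF3R had 366 to 583 CPM, CEBPE 12.4 to 33.5 CPM and ELANE 7.61 to 22.5 CPM. The epithelial adhesion gene EPCAM was expressed too, at 101 to 140 CPM, in DMSO and 552A libraries alike. These are bulk libraries, in which fewer cells of a type and less RNA per cell cannot be told apart.

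The transcript of the drug target itself was not called. KDM1A (ENSG00000004487.15, chromosome 1, 23019443 to 23083689, plus strand) had 301 and 341 CPM with DMSO at day 2, 313 and 354 with DMSO at day 4, 290 and 271 with 552A at day 2 and 262 and 302 with 552A at day 4. On the log2 scale 552A minus DMSO was -0.22 (adjusted p = 0.1), and without replicate 1 of 552A at day 2 the adjusted p was 0.0494. An inhibitor of the enzyme need not alter its mRNA, and this value is no check of the labels. Of 18 LSD1 complex and SNAG partner genes tested, 1 was called higher and 1 lower, with a list median of -0.12. That is 5.56% each way, where 12.1% and 9.27% of all genes were called higher and lower. The lower calls numbered 3 and 5 without replicates 1 and 2 of 552A at day 2, and 5 with offsets for GC content and length. GFI1 (ENSG00000162676.11, chromosome 1, 92474762 to 92486876, minus strand), the repressor that anchors LSD1 on chromatin, had 416 and 380 CPM with DMSO at day 2, 456 and 420 with DMSO at day 4, 630 and 621 with 552A at day 2 and 735 and 792 with 552A at day 4. All 552A libraries lay above all DMSO libraries, a rise of 1.66-fold (log2 0.73 ± 0.09, adjusted p = 5.68e-05). The member called lower was MTA2, a subunit of the NuRD deacetylase complex (300 to 309 CPM in the DMSO libraries and 217 to 271 in the 552A libraries; log2 -0.40 ± 0.09, adjusted p = 0.00609). GFI1B, the paralog of the erythroid and platelet lineages, had 0 counts in the DMSO libraries and 0.0465 to 0.276 CPM with 552A, too low to be tested.

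Over both days, with day as a factor, the inhibitor changed 3696 of 17293 genes tested (21.4%), 2093 of them higher and 1603 lower (12.1% and 9.27% of genes tested). Calls rest on edgeR's quasi-likelihood test with Benjamini-Hochberg adjustment over all genes tested and a threshold of 0.05. The median log2 fold change over all genes was -0.014. Rises were steeper than falls: 769 higher and 124 lower genes passed 2-fold, and 108 higher and 1 lower passed 8-fold. In 1856 of the called genes all 4 552A libraries lay above all 4 DMSO libraries, in 1407 all lay below, and in 433 the libraries overlapped. The balance of rises and falls moved with a correction for GC content. Genes called higher had a median GC content of 44.2% and genes called lower of 53.6%, against 47.7% for all genes tested, and with offsets for GC content and length 2311 genes were called higher and 2729 lower. The offsets kept 3303 of the 3696 calls in their direction. Without replicate 1 of 552A, replicate 1 of DMSO or replicate 2 of DMSO at day 4, 2421, 2332 and 2458 genes were called.

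The 12 steepest rises were taken from well expressed protein-coding genes whose groups did not overlap, so separate groups were part of the choice. They were led by IL7R, TCF4 and KCTD12. IL7R (ENSG00000168685.14, chromosome 5, 35852695 to 35879603, plus strand), the receptor chain for interleukin 7 that lymphoid cells use, had 0.33 and 0.276 CPM with DMSO at day 2, 0.269 and 0.197 with DMSO at day 4, 10.2 and 6.46 with 552A at day 2 and 26.7 and 34.3 with 552A at day 4. It rose 66-fold (log2 6.04 ± 0.35, adjusted p = 1.05e-07), from near silence to a clear signal in every treated library, and the day 4 libraries lay above those of day 2. TCF4 (ENSG00000196628.13, chromosome 18, 55222331 to 55664787, minus strand), an E protein that specifies plasmacytoid dendritic cells, had 0.8 and 1.38 CPM with DMSO at day 2, 0.693 and 0.443 with DMSO at day 4, 40.2 and 30.9 with 552A at day 2 and 76.9 and 79.8 with 552A at day 4. It rose 64.2-fold (log2 6.00 ± 0.32, adjusted p = 4.93e-08), and here too each day 4 library was above each day 2 library. KCTD12, an auxiliary subunit of GABA-B receptors, had 4.66 and 3.55 CPM in the day 2 DMSO libraries and 3.69 and 4.67 in those of day 4, and 209 and 164 CPM in the day 2 552A libraries and 274 and 303 in those of day 4. That was a rise of 56.5-fold (log2 5.82 ± 0.16, adjusted p = 3.44e-10), the one with the smallest p among the 12 largest.

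**Figure D1:**
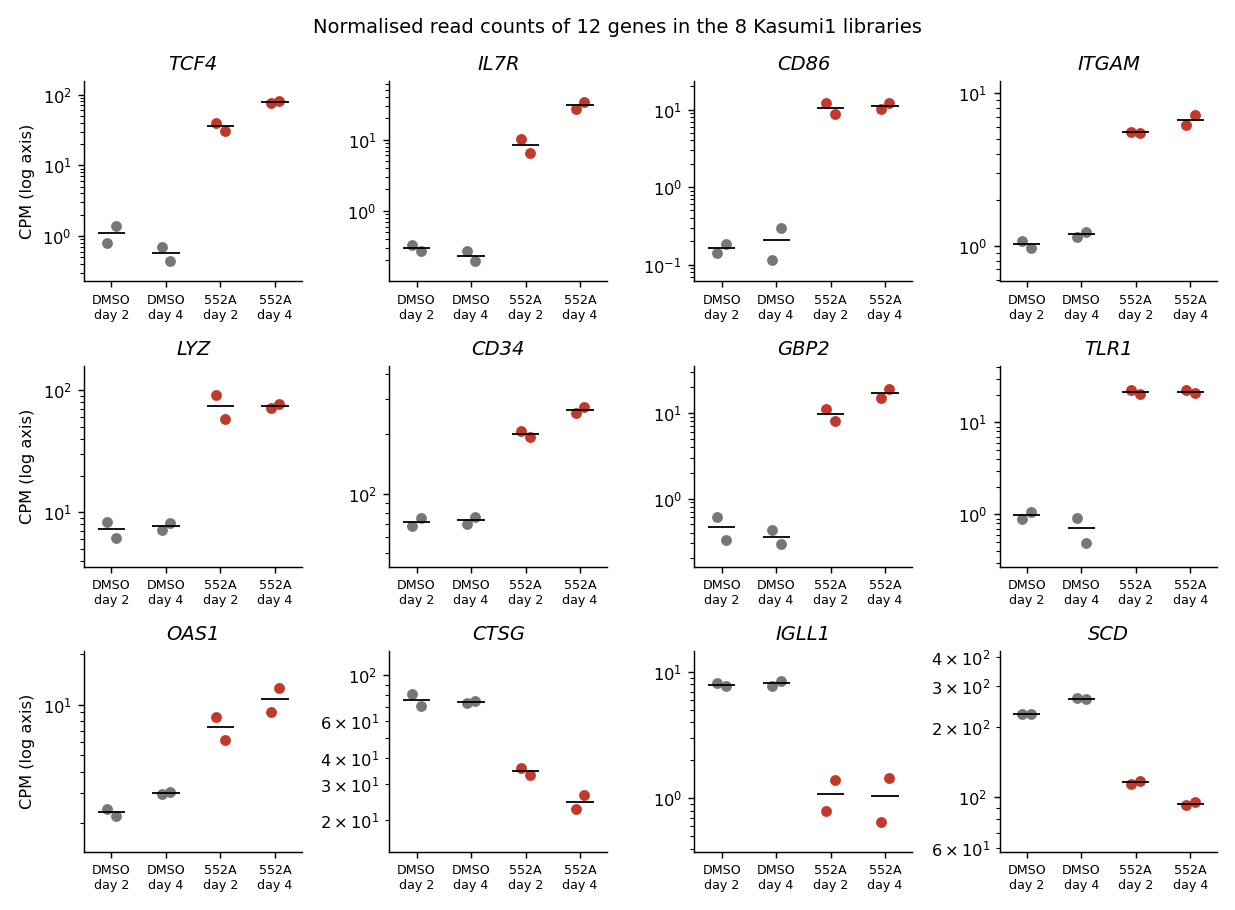
Normalised read counts of 12 genes, 1 panel each, in the 8 Kasumi1 libraries; the log axis gives CPM, points are single libraries (grey DMSO, red 552A) and lines are means of 2. TCF4, IL7R and CD86 sit near or below 1 CPM without the inhibitor and between 6.46 and 79.8 CPM with it, while the red points of CTSG, IGLL1 and SCD all lie below the grey ones. A lack of overlap was part of the choice of TCF4, IL7R, GBP2, TLR1, CTSG and IGLL1.

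The other 9 of these 12 rose between 11.4-fold and 31.2-fold, and none had a DMSO library above 4.87 CPM. GBP2, a GTPase induced by interferon, had 0.295 to 0.612 CPM in the DMSO libraries and 8.19 to 19.2 in the 552A libraries (log2 4.96 ± 0.27, adjusted p = 6.91e-08). TLR1, a cell surface receptor for bacterial lipopeptides, had 0.492 to 1.06 CPM in the DMSO libraries and 20.3 to 22.5 in the 552A libraries (log2 4.65 ± 0.18, adjusted p = 8.73e-09). CAMSAP2, which binds the minus ends of microtubules, had 0.443 to 0.885 CPM in the DMSO libraries and 13.5 to 17.5 in the 552A libraries (log2 4.55 ± 0.21, adjusted p = 1.63e-08). In each of these 3 genes, chosen as above for groups that did not overlap, the lowest treated library was several times the highest untreated one. FGD6, an exchange factor for CDC42, had 3.23 to 3.96 CPM without and 43.9 to 63.2 with the inhibitor, and BCAR3, an adaptor of integrin signalling, had 0.507 to 1.32 CPM without and 8.56 to 20.6 with the inhibitor. RGL1, an exchange factor for Ral GTPases, had log2 3.72, the protease inhibitor gene A2M 3.65, LGALS1, which encodes galectin-1, 3.52, and the surface receptor gene MPZL1 3.51. Their adjusted p ran from 1.62e-09 (FGD6) to 5.26e-07 (BCAR3).

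Most myeloid surface markers tested were called. Of 28, 16 were called higher and 3 lower, against 12.1% and 9.27% of all genes, with a list median of 0.69. CD86 (ENSG00000114013.15, chromosome 3, 122055366 to 122121139, plus strand), the costimulatory ligand of antigen presenting cells, had 0.141 and 0.184 CPM with DMSO at day 2, 0.115 and 0.295 with DMSO at day 4, 12.3 and 8.87 with 552A at day 2 and 10.2 and 12.1 with 552A at day 4. It rose 58.7-fold (log2 5.88 ± 0.26, adjusted p = 1.55e-08), and treated and untreated libraries were far apart at both days. ITGAM (ENSG00000169896.16, chromosome 16, 31259967 to 31332892, plus strand), the alpha chain of the CD11b/CD18 integrin, had 1.08 and 0.968 CPM with DMSO at day 2, 1.15 and 1.23 with DMSO at day 4, 5.62 and 5.52 with 552A at day 2 and 6.17 and 7.26 with 552A at day 4. It rose 5.52-fold (log2 2.46 ± 0.18, adjusted p = 6.38e-07) with no overlap between groups, and was at most 7.26 CPM in any library.

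Other surface genes were called as well. MRC1, the mannose receptor of macrophages, rose 10.6-fold (log2 3.41 ± 0.26, adjusted p = 9.55e-07) and CD48, a ligand of natural killer cell receptors, 9.4-fold (log2 3.23 ± 0.18, adjusted p = 6.91e-08). The 3 members called lower were FCGR1A, the high affinity IgG receptor (log2 -0.67, adjusted p = 0.00145), SELPLG, the ligand of P-selectin (-1.01, adjusted p = 0.046), and TREM2, a lipid sensing receptor of macrophages (-1.96, adjusted p = 0.00109). The call of SELPLG held only without replicate 2 of 552A or replicate 1 of DMSO at day 2, and ended without each of the other 6 libraries (adjusted p = 0.0717 to 0.239). The 6 monocyte and macrophage markers summed to 37.5 to 41.7 CPM in DMSO libraries and 52.6 to 60.8 CPM with 552A. The higher sum came with more CSF1R and ITGAM and less FCGR1A, while CD14, CD68 and CD163 were below 1 CPM in all 8 libraries.

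Stem and progenitor surface genes did not go down together. CD34 (ENSG00000174059.16, chromosome 1, 207880972 to 207911402, minus strand), the glycoprotein that marks stem and progenitor cells, had 68.7 and 75.1 CPM with DMSO at day 2, 70 and 76.3 with DMSO at day 4, 206 and 193 with 552A at day 2 and 255 and 274 with 552A at day 4. It rose 3.17-fold (log2 1.66 ± 0.10, adjusted p = 1.32e-07), each treated library above each untreated one. KIT, the receptor of stem cell factor, had 1730 and 1770 CPM in the day 2 DMSO libraries and 1740 and 1900 in those of day 4, and 1560 and 1370 CPM in the day 2 552A libraries and 1260 and 1050 in those of day 4. It fell to 0.729 of the DMSO level (log2 -0.46 ± 0.11, adjusted p = 0.0111), lowest at day 4, and the call ended without replicate 2 of DMSO at day 4 (adjusted p = 0.0539). In the list of 12 such genes 7 were called higher and 2 lower, against 12.1% and 9.27% of all genes, with a median of 0.55. The receptor of macrophage colony-stimulating factor, CSF1R, had 9.44 to 10.8 CPM without and 29.6 to 37.7 with the inhibitor (log2 1.73 ± 0.12, adjusted p = 3.72e-07). CD44, the hyaluronan receptor, rose 2.39-fold (log2 1.26 ± 0.09, adjusted p = 4.5e-07), and CD47, which restrains phagocytosis, 1.64-fold (log2 0.71 ± 0.10, adjusted p = 0.000272). Besides KIT, the shared beta chain gene CSF2RB was called lower (log2 -0.57, adjusted p = 0.00259).

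Among myeloid transcription factors, 12 of 29 were called higher and 1 lower, against 12.1% and 9.27% of all genes (median 0.41). Without replicate 2 of 552A at day 2 there were 5 lower calls. The best known differentiation factors were not those that moved most. IRF4, which acts in dendritic cells, macrophages and B cells, had 0.235 and 0.507 CPM with DMSO at day 2, 0.577 and 0.0984 with DMSO at day 4, 5.58 and 4.1 with 552A at day 2 and 7.56 and 9.92 with 552A at day 4. It rose 17.9-fold (log2 4.16 ± 0.35, adjusted p = 2.55e-06) and no DMSO library reached 1 CPM. BCL6, a repressor of inflammatory genes, rose 2.79-fold (log2 1.48 ± 0.17, adjusted p = 3.86e-05), and IRF8, a factor of monocytes and dendritic cells, 2.13-fold (log2 1.09 ± 0.15, adjusted p = 0.000167). FOSL2, an AP-1 subunit, and TFEC, a relative of MITF, rose 1.87-fold and 1.96-fold (adjusted p = 4.83e-06 and 4.63e-06). CEBPE, the factor of late granulocyte maturation, was the member called lower, with 22.6 to 33.5 CPM in the DMSO libraries and 12.4 to 17.6 in the 552A libraries (log2 -0.93 ± 0.15, adjusted p = 0.000537). SPI1, which encodes PU.1, had 25.1 to 30.9 CPM in the DMSO libraries and 17.9 to 33.9 in the 552A libraries and was not called (log2 -0.18, adjusted p = 0.515). CEBPA was called at log2 0.38 (adjusted p = 0.046), and that call ended without any library other than replicate 1 of 552A at day 2 (adjusted p = 0.0612 to 0.148).

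Progenitor transcription factors held 11 higher and 4 lower genes of 29 (median 0.22). That is 37.9% and 13.8%, against 12.1% and 9.27% of all genes. Besides TCF4, those named were ERG, a factor of stem cell self-renewal, with 70 to 82.5 CPM in the DMSO libraries and 144 to 171 in the 552A libraries (log2 1.02 ± 0.09, adjusted p = 2.94e-06), MEIS1, a HOX cofactor (2.06-fold, adjusted p = 0.000573), IKZF2, an Ikaros family member (2.29-fold, adjusted p = 0.000758), and MYCN (1.92-fold, adjusted p = 0.000873). The 4 called lower were LMO2 (log2 -0.26), TRIB1 (-0.46), TAL1 (-0.69) and HLF (-0.87). Only that of HLF held without each library in turn. LMO2 ended without any library but replicate 1 of 552A at day 2 (adjusted p = 0.079 to 0.194) and with GC and length offsets (adjusted p = 0.304). TRIB1 ended without any but replicate 2 of 552A and replicate 1 of DMSO at day 2 (adjusted p = 0.0568 to 0.254). TAL1 ended without replicate 1 of 552A at day 4, replicate 2 of DMSO at day 2 or replicate 2 of DMSO at day 4 (adjusted p = 0.0854, 0.058 and 0.0722). RUNX1 (150 to 172 CPM in the DMSO libraries and 107 to 190 in the 552A libraries) and RUNX1T1 were not called (adjusted p = 0.788 and 0.504). Of 14 genes of the RUNX1-RUNX1T1 expression signature 5 were called higher and 1 lower (35.7% and 7.14%, median 0.28), and 3 were called higher without replicate 1 of DMSO at day 4. They were CD34, SIPA1L2, a GTPase activating protein (log2 1.43 ± 0.12, adjusted p = 2.39e-06), the guidance receptor gene ROBO1 (log2 0.50 ± 0.09, adjusted p = 0.00108), PSD3 and IGFBP7 (log2 0.36 and 0.34), and KIT on the lower side. With offsets for GC content and length PSD3 was not called (log2 0.12, adjusted p = 0.229), nor without replicate 1 or 2 of DMSO at day 4 (adjusted p = 0.07 and 0.0618). IGFBP7 was not called without replicate 2 of 552A at day 4, replicate 1 of DMSO at day 2 or replicate 1 of DMSO at day 4 (adjusted p = 0.0745, 0.0692 and 0.129).

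Granule genes split. Of 13 azurophil granule genes, which blasts and promyelocytes express, 6 were called lower and 1 higher, against 9.27% and 12.1% of all genes (median -0.45). Without replicate 1 of DMSO at day 2 or at day 4 the median was -0.22 and -0.26. Without replicate 2 of DMSO at day 2 it was -0.68, and with offsets for GC content and length -0.17. The 1 higher was LYZ (ENSG00000090382.6, chromosome 12, 69348341 to 69354234, plus strand), the lysozyme of monocytes and granulocytes, with 8.38 and 6.17 CPM with DMSO at day 2, 7.2 and 8.17 with DMSO at day 4, 91.6 and 57.9 with 552A at day 2 and 70.9 and 77.4 with 552A at day 4. It rose 9.95-fold (log2 3.32 ± 0.16, adjusted p = 1.94e-08), all treated libraries above 50 CPM and all untreated below 10. Cathepsin G, encoded by CTSG, had 81.3 and 70.8 CPM in the day 2 DMSO libraries and 73.3 and 74.9 in those of day 4, and 35.9 and 33.2 CPM in the day 2 552A libraries and 22.6 and 26.5 in those of day 4. It fell 2.57-fold (log2 -1.36 ± 0.11, adjusted p = 2.58e-06), lowest at day 4. CTSG is 1 of the 12 largest falls, which were taken from genes whose groups did not overlap. The serine protease gene PRTN3 had 62.1 to 94.9 CPM in the DMSO libraries and 21.6 to 46.2 in the 552A libraries (log2 -1.25 ± 0.16, adjusted p = 0.000128), and the ribonuclease genes RNASE2 and RNASE3 had log2 -1.40 ± 0.14 and log2 -1.84 ± 0.31. CST7, a cystatin, and PRSS57, a granule protease, completed the 6 (log2 -1.67 and -0.62, adjusted p = 0.000985 and 0.0393). The call of PRSS57 ended without any library but replicate 2 of 552A and replicate 2 of DMSO at day 2 (adjusted p = 0.0658 to 0.175), and in DESeq2 (adjusted p = 0.0975). MPO, the most abundant of these genes, had 10300 to 12100 CPM in the DMSO libraries and 8000 to 11700 in the 552A libraries, which overlapped (log2 -0.24, adjusted p = 0.208).

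Genes of later neutrophil granules were mostly too low to test. Of 19 specific and gelatinase granule genes 13 were too low to be tested, and of the 6 tested edgeR called 0, with 1 at an unadjusted p under 0.05, and DESeq2 called 0. There was 1 higher call without replicate 2 of 552A at day 2 or at day 4, and 1 lower call without replicate 1 of DMSO at day 4. Among 21 genes of NADPH oxidase and neutrophil function, 7 were called higher and 4 lower, against 12.1% and 9.27% of all genes. The median was 0.36, or 0.22 and 0.18 without replicate 2 of 552A at day 2 and at day 4. ALOX5, the lipoxygenase that starts leukotriene synthesis, had 0.0942 and 0.138 CPM with DMSO at day 2, 0.308 and 1.03 with DMSO at day 4, 3.21 and 3.01 with 552A at day 2 and 5.3 and 6.91 with 552A at day 4. It rose 12.7-fold (log2 3.67 ± 0.35, adjusted p = 8.94e-06), while its activating partner ALOX5AP fell, with 3.39 to 4.47 CPM in the DMSO libraries and 1.11 to 2 in the 552A libraries (log2 -1.36 ± 0.22, adjusted p = 0.000684). CYBB, the catalytic subunit of the phagocyte oxidase, rose 2.94-fold (log2 1.55 ± 0.19, adjusted p = 8.71e-05), and VNN2, a surface pantetheinase of neutrophils, 6.52-fold (log2 2.71 ± 0.35, adjusted p = 0.000118). S100P, a calcium-binding protein, was also called lower (log2 -1.65 ± 0.27, adjusted p = 0.000849), as was its relative S100A4 (log2 -0.53). S100A4 was not called without replicate 1 of DMSO at day 2 or any of the 4 day 4 libraries (adjusted p = 0.0668 to 0.105), nor with GC and length offsets (adjusted p = 0.0708). Of 26 lysosomal genes 6 were called higher and 2 lower (median 0.09), and 0 lower without replicate 1 of 552A at day 4 or any 1 of the 4 DMSO libraries. That is 23.1% higher and 7.69% lower, the latter below the 9.27% of all genes. CTSS, the cathepsin that trims the class II invariant chain, led the higher ones with 49.6 to 61.3 CPM in the DMSO libraries and 125 to 172 in the 552A libraries (log2 1.45 ± 0.10, adjusted p = 6.71e-07).

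Pattern recognition and inflammasome genes rose in 14 of 20 cases and fell in 0 (median 0.68; 1 fell without replicate 2 of 552A at day 2), against 12.1% of genes called higher in all. LY96, the co-receptor through which TLR4 sees endotoxin, had 0 and 0 CPM with DMSO at day 2, 0.0385 and 0 with DMSO at day 4, 10.6 and 7.17 with 552A at day 2 and 9.4 and 7.97 with 552A at day 4. That was 1 count in the 4 DMSO libraries and 865 with 552A, a ratio of normalised counts of 766 with an exact 95% interval of 137 to 30300 that covers counting error only (adjusted p = 1.63e-08). TLR3, the endosomal receptor for double-stranded RNA, had 2.04 to 4.05 CPM without and 13.3 to 14.1 with the inhibitor (log2 2.32 ± 0.19, adjusted p = 1.83e-06). TLR6 rose 3.81-fold (log2 1.93 ± 0.13, adjusted p = 3.53e-07) and NLRP1, an inflammasome sensor, 7.11-fold (log2 2.83 ± 0.21, adjusted p = 7.54e-07). With TLR1, these genes were at or below 7.19 CPM in every DMSO library and higher in every treated one.

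Interferon-stimulated effector genes formed the list with the most calls, among lists whose members were chosen with earlier results of these data known. Of 51 tested, 38 were called higher and 0 lower (74.5% higher, against 12.1% of all genes), and the list median was 0.71 against -0.014 over all genes. In 36 of the 51 all 552A libraries lay above all DMSO libraries, where 24.2% of all genes were separated in either direction. PARP14, a mono-ADP-ribosyltransferase, had 99.3 and 98.7 CPM with DMSO at day 2, 98.9 and 102 with DMSO at day 4, 238 and 207 with 552A at day 2 and 255 and 242 with 552A at day 4. It rose 2.35-fold (log2 1.24 ± 0.08, adjusted p = 3.76e-07), with the 4 DMSO libraries within 98.7 to 102 CPM. GBP4, a guanylate-binding protein, had 0.553 to 1.23 CPM in the DMSO libraries and 5.72 to 11.6 in the 552A libraries (log2 3.31 ± 0.20, adjusted p = 1.86e-07). HERC5, the ligase of the ubiquitin-like modifier ISG15, had 11.6 to 13.3 CPM in the DMSO libraries and 33.2 to 38.7 in the 552A libraries (log2 1.49 ± 0.11, adjusted p = 6.38e-07), and TRIM22, a restriction factor, 33.1 to 40.1 CPM in the DMSO libraries and 83.2 to 102 in the 552A libraries (log2 1.33 ± 0.10, adjusted p = 7.11e-07). OAS1, which senses double-stranded RNA, rose 3.38-fold (log2 1.76 ± 0.17, adjusted p = 1.1e-05). GBP1 had 1 count in the DMSO libraries and 246 with 552A, a ratio of 218 with an exact 95% interval of 38.7 to 8640 (adjusted p = 1.39e-06).

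The interferon genes themselves were at or near 0. The 10 ligand genes listed, of types I, II and III, summed to 9 counts in the 4 DMSO libraries and 5 in the 4 552A libraries, and IFNB1 had 6 and 1. Receptor genes were expressed, and 3 of the 4 tested were called higher: IFNAR1 (log2 0.68 ± 0.13, adjusted p = 0.00254), IFNAR2 (log2 0.81 ± 0.14, adjusted p = 0.00132) and IFNGR1 (log2 0.93 ± 0.10, adjusted p = 1.89e-05). Of 21 sensor and signalling genes 9 were called higher and 1 lower, against 12.1% and 9.27% of all genes (median 0.32). Without replicate 2 of 552A at day 2 there were 3 lower calls. IRF1, which induces class I and guanylate-binding genes, had 114 and 112 CPM in the day 2 DMSO libraries and 141 and 133 in those of day 4, and 224 and 235 CPM in the day 2 552A libraries and 313 and 357 in those of day 4. It rose 2.22-fold (log2 1.15 ± 0.09, adjusted p = 1.32e-06), each day 4 treated library above each day 2 one. DDX58, which encodes the RNA sensor RIG-I, rose 2.82-fold (log2 1.5 ± 0.12, adjusted p = 1.98e-06), IRF7 2.52-fold (log2 1.33 ± 0.24, adjusted p = 0.00163) and the kinase gene JAK1 1.39-fold (log2 0.47 ± 0.08, adjusted p = 0.00096). IKBKE, a kinase of the same pathway, was the member called lower (log2 -0.36, adjusted p = 0.0364), a call that ended without any library but the 2 of 552A at day 2 (adjusted p = 0.0508 to 0.179).

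Promoters of interferon-stimulated genes are known for the interferon-stimulated response element that IRF and STAT factors read, whose core was searched as GAAA, any 2 bases and GAAA, and 4 are shown to let that element be seen beside its gene. They are the 4 called effector genes with the smallest p that hold it, as 150 bases from 130 before the annotated start to 20 from it, RefSeq, build GRCh38.p14, written in the direction of transcription; capitals mark each match on either strand.
GBP4: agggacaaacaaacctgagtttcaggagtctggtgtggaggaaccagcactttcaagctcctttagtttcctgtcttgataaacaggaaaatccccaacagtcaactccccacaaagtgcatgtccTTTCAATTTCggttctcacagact
PARP14: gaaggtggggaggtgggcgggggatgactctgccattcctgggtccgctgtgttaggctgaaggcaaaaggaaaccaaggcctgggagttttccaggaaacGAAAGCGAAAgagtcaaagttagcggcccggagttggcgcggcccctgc
HERC5: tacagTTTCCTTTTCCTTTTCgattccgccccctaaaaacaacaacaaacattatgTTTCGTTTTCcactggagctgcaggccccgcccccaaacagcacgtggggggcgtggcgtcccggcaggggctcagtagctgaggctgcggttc
IFIT5: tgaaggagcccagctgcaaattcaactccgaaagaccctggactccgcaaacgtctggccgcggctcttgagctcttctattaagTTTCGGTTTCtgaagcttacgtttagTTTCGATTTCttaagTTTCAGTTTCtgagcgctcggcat
The stretches lie at chr1:89198923-89199072 on the minus strand, chr3:122680709-122680858, chr4:88456989-88457138 and chr10:89414438-89414587 on the plus strand. GBP4 and PARP14 hold 1 match each, and HERC5 and IFIT5 hold 3 each; the first match in HERC5 overlaps the next. IFIT5, which binds viral RNA, had 0.921 to 1.58 CPM in the DMSO libraries and 5.32 to 9.68 in the 552A libraries (log2 2.69 ± 0.20, adjusted p = 7.31e-07). Over the 300 bases of each table entry, from 250 before to 50 after the start, the motif was in 3.65% of 27305 RefSeq promoters and 2.88% of 9989 tested protein-coding genes. It was in 4.54% of 1432 genes called higher and 2.31% of 1213 called lower, and in 19 of the 32 called effector genes with an entry (59.4%). The 10 effector genes with an entry that were not called all held it, so having the motif did not separate called from uncalled members. The purine-rich motif GAGGAAGT, a form of the PU.1 site, was in 3.21% of genes called higher, 1.9% of those called lower and 2.59% of tested genes. A match describes the letters and shows no binding.

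**Figure D2:**
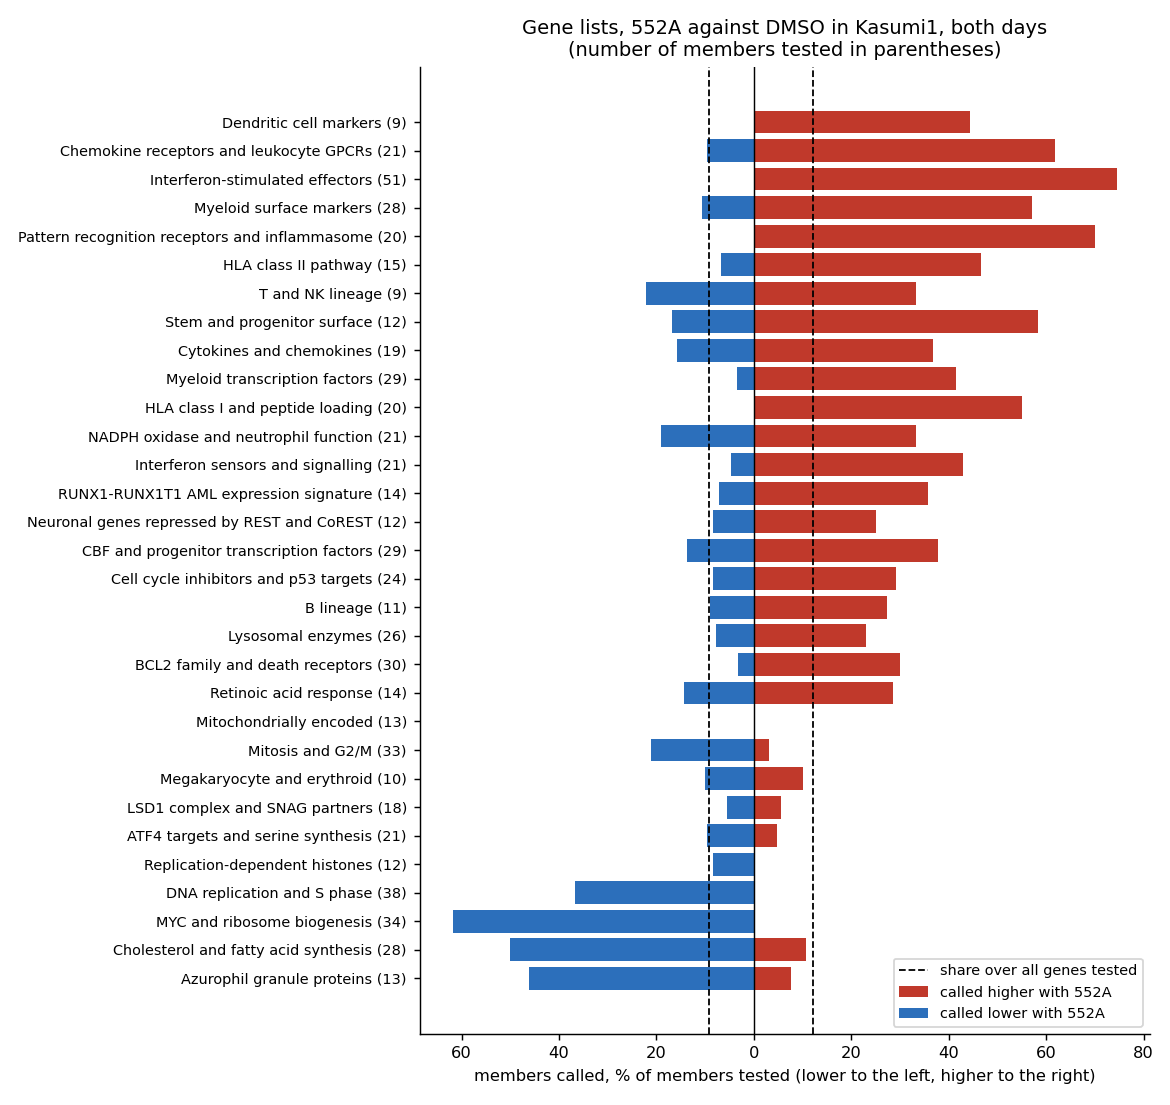
Share of members called higher (red, to the right) or lower (blue, to the left) with 552A over both days, for lists with at least 9 members tested, ordered by median log2 fold change; dashed lines give the shares over all genes, 12.1% and 9.27%. Interferon-stimulated effectors (74.5% higher) and pattern recognition (70%) extend furthest to the right, and MYC and ribosome biogenesis (61.8%) and cholesterol and fatty acid synthesis (50%) furthest to the left. Lists and members were chosen with earlier results of these data known.

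Antigen presentation genes had more higher than lower calls, where 12.1% and 9.27% of all genes were called higher and lower. In the HLA class I pathway 11 of 20 genes were called higher and 0 lower (median 0.39), with 7 higher when replicate 1 of DMSO at day 4 was left out. PSMB9, a catalytic subunit of the immunoproteasome, had 3.3 to 6.35 CPM without and 8.97 to 17 with the inhibitor (log2 1.55 ± 0.16, adjusted p = 1.4e-05). ERAP2, which trims peptides in the endoplasmic reticulum, rose 1.95-fold (log2 0.97 ± 0.09, adjusted p = 5.6e-06) and HLA-B 1.7-fold (log2 0.76 ± 0.14, adjusted p = 0.00169). In the class II pathway 7 of 15 were called higher and 1 lower (median 0.67, or 0.38 and 0.43 without replicate 2 of 552A and replicate 1 of DMSO at day 4). Its master regulator CIITA had 10 and 9.95 CPM in the day 2 DMSO libraries and 8.81 and 9.89 in those of day 4, and 12.6 and 18.7 CPM in the day 2 552A libraries and 16.8 and 22.9 in those of day 4. It rose 1.83-fold (log2 0.87 ± 0.16, adjusted p = 0.00186), and HLA-DRA rose 1.75-fold (log2 0.80 ± 0.18, adjusted p = 0.00582). RFXANK, a subunit of the factor that binds class II promoters, was the member called lower (log2 -0.49), but not without replicate 1 of 552A at day 4 or replicate 1 or 2 of DMSO at day 2 (adjusted p = 0.0978, 0.0573 and 0.0647). HLA genes share sequence with close paralogs, so their counts are less certain.

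Of 9 dendritic cell markers tested 4 were called higher and 0 lower, against 12.1% and 9.27% of all genes (median 0.91), at mostly low levels. They were TCF4, the lipid antigen presenting gene CD1C, with 0.0385 to 0.141 CPM in the DMSO libraries and 0.739 to 1.12 in the 552A libraries (log2 3.28 ± 0.43, adjusted p = 0.000127), the chemokine receptor gene CCR7, with 0 to 0.276 CPM in the DMSO libraries and 0.232 to 0.974 in the 552A libraries (log2 2.77 ± 0.78, adjusted p = 0.0226), and the neuropilin gene NRP1, with 7 to 8.1 CPM in the DMSO libraries and 14.3 to 21.3 in the 552A libraries (log2 1.26 ± 0.14, adjusted p = 4.14e-05). The call of CCR7 ended without any 1 of 5 libraries, both of DMSO at day 4, replicate 1 of DMSO at day 2 and replicate 2 of 552A at day 2 and at day 4 (adjusted p = 0.0524 to 0.0844). CLEC4C, a surface lectin that defines plasmacytoid dendritic cells, had 0 counts in the 8 libraries.

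Receptors for chemokines and other leukocyte signals counted 13 higher and 2 lower genes of 21 (median 0.82). That is 61.9% and 9.52%, against 12.1% and 9.27% of all genes. CXCR4, the receptor for the marrow chemokine CXCL12, had 2.07 and 2.17 CPM with DMSO at day 2, 1.92 and 1.43 with DMSO at day 4, 7.71 and 8.36 with 552A at day 2 and 13.9 and 16.7 with 552A at day 4. It rose 5.86-fold (log2 2.55 ± 0.24, adjusted p = 6.19e-06), with day 4 above day 2. P2RY14, a receptor for UDP-sugars, had 4.48 to 5.39 CPM in the DMSO libraries and 28.6 to 37.4 in the 552A libraries (log2 2.72 ± 0.12, adjusted p = 1.63e-08). GPR84, a receptor for medium-chain fatty acids, and GPR65, a proton sensor, rose 7.31-fold and 4.76-fold (adjusted p = 1.17e-06 and 3.9e-07). The 2 called lower were PTGER2 and P2RY2 (log2 -0.49 and -1.46). Of 19 cytokine and chemokine genes 7 were called higher and 3 lower (36.8% and 15.8%, median 0.53). TNFSF10, which encodes the death ligand TRAIL, rose 5.7-fold, with 2.04 to 2.59 CPM in the DMSO libraries and 8.16 to 17.7 in the 552A libraries (log2 2.51 ± 0.21, adjusted p = 3.03e-06). IL1B rose 3.32-fold (log2 1.73 ± 0.24, adjusted p = 0.000174) and IL15 3.96-fold (log2 1.98 ± 0.32, adjusted p = 0.000603), from below 1.3 CPM in DMSO libraries. Those called lower were CCL5, with 21.7 to 29.7 CPM in the DMSO libraries and 7.56 to 17.6 in the 552A libraries (log2 -1.03 ± 0.20, adjusted p = 0.00277), VEGFA (log2 -0.52) and CCL2, which had 0.138 to 0.962 CPM in the DMSO libraries and 0 to 0.0929 in the 552A libraries (adjusted p = 0.00999). The call of VEGFA ended without replicate 1 of 552A at day 4, replicate 2 of DMSO at day 2 or either DMSO library of day 4 (adjusted p = 0.0524 to 0.1).

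Single genes of other lineages rose as well. FCRLA, an intracellular Fc receptor-like protein of B cells, had 0 counts in the DMSO libraries and 2.37 and 2.45 CPM with 552A at day 2 and 4.01 and 4.69 at day 4, at least 97.2-fold higher against 3 counts over the group (adjusted p = 1.11e-06). GZMA, a granzyme of cytotoxic lymphocytes, had 0 to 0.0921 CPM in the DMSO libraries and 1.82 to 2.69 in the 552A libraries (log2 5.43 ± 0.44, adjusted p = 1.98e-06). SCN3A, a neuronal sodium channel and a target of the REST repressor, had 3 counts with DMSO and 414 with 552A, a ratio of 122 with an exact 95% interval of 41.5 to 595 (adjusted p = 2.93e-06). IGLL1 (ENSG00000128322.6, chromosome 22, 23573125 to 23580308, minus strand), part of the surrogate light chain of pre-B cells, went the other way, with 8.14 and 7.74 CPM with DMSO at day 2, 7.73 and 8.56 with DMSO at day 4, 0.79 and 1.39 with 552A at day 2 and 0.645 and 1.46 with 552A at day 4. It fell 7.32-fold (log2 -2.87 ± 0.24, adjusted p = 2.18e-06), the steepest of the 12 largest falls. Of 11 B lineage genes 3 were called higher and 1 lower, of 9 T and NK genes 3 and 2, of 12 REST targets 3 and 1, of 6 mast cell, basophil and eosinophil genes 3 and 1, and of 10 megakaryocyte and erythroid genes 1 and 1, where 12.1% and 9.27% of all genes were called higher and lower. With so few members these counts moved with single calls. The B lineage list had 1 higher call without replicate 1 of DMSO at day 2 or either DMSO library of day 4, and in DESeq2. The single lower call of the REST list ended without replicate 1 of 552A at day 4 or replicate 2 of DMSO at day 2, and that of the mast cell list without replicate 2 of DMSO at day 4. The megakaryocyte list had 0 lower calls without any of these 3 libraries. It had 2 without replicate 1 of 552A at day 2. MS4A1, CD3D and GNLY, defining genes of B, T and natural killer cells, did not pass 0.0492 CPM in any library. The B cell markers together summed to 3.39 to 4.72 CPM in the DMSO libraries and 2.63 to 5.31 CPM with 552A. Natural killer cell markers summed to 0.541 to 0.962 and 1.31 to 1.9 CPM, and T cell markers to 0.138 to 0.394 and 0 to 0.266 CPM.

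Of 34 MYC and ribosome biogenesis genes tested, 21 were called lower, 0 higher and 13 not at all (9.27% of all genes were called lower), with a median of -0.40. MYC itself had 433 and 512 CPM in the day 2 DMSO libraries and 483 and 630 in those of day 4, and 267 and 403 CPM in the day 2 552A libraries and 291 and 434 in those of day 4. It was called at 0.68 of the DMSO level (log2 -0.56 ± 0.15, adjusted p = 0.0193), although the libraries overlapped and the call ended without replicate 1 of 552A at day 4, replicate 2 of DMSO at day 2 or replicate 2 of DMSO at day 4 (adjusted p = 0.102, 0.0924 and 0.0822). Firmer members were ODC1, the first enzyme of polyamine synthesis and a MYC target, with 289 to 325 CPM in the DMSO libraries and 170 to 191 in the 552A libraries (log2 -0.71 ± 0.08, adjusted p = 3.37e-05), RRP12, a ribosome export factor, with 112 to 135 CPM in the DMSO libraries and 58.7 to 82.3 in the 552A libraries (log2 -0.83 ± 0.11, adjusted p = 0.000146), and NOP16 and WDR12, nucleolar assembly factors (log2 -0.65 ± 0.10 and log2 -0.53 ± 0.09). Without replicate 1 of 552A at day 4 the list had 12 lower calls.

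Replication genes followed at a smaller size. Of 38 S phase genes 14 were called lower and 0 higher (median -0.27), and of 33 mitotic genes 7 lower and 1 higher (median -0.10). The lower calls are 36.8% and 21.2% of these lists, against 9.27% of all genes. MCM7, a subunit of the replicative helicase, had 544 to 633 CPM in the DMSO libraries and 357 to 445 in the 552A libraries (log2 -0.49 ± 0.09, adjusted p = 0.00204), and MCM2 388 to 466 CPM in the DMSO libraries and 236 to 332 in the 552A libraries (log2 -0.56 ± 0.11, adjusted p = 0.00302). CDC20, an activator of the anaphase-promoting complex, had 97.3 to 116 CPM in the DMSO libraries and 71.7 to 84.7 in the 552A libraries (log2 -0.44 ± 0.09, adjusted p = 0.0035), and the kinesin gene KIF11 was the mitotic gene called higher (log2 0.38 ± 0.10, adjusted p = 0.0143), but not without replicate 1 of DMSO at day 2 or at day 4 (adjusted p = 0.0519 and 0.0503). These counts moved with single libraries: the S phase list had 6, 9, 9 and 8 lower calls without replicate 1 of 552A at day 4, replicate 1 of DMSO at day 2, and replicates 1 and 2 of DMSO at day 4, and 22 without replicate 1 of 552A at day 2. The mitotic list had 1, 3, 3, 4 and 2 lower calls without replicate 1 of 552A at day 4 and each DMSO library in turn, and 14 without replicate 1 of 552A at day 2. With offsets for GC content and length the lists had 23 and 15 lower calls.

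Of 24 cell cycle inhibitors and p53 targets 7 were called higher and 2 lower (median 0.20). That is 29.2% and 8.33%, against 12.1% and 9.27% of all genes. TNFRSF10B, the death receptor for TRAIL, had 11.2 and 9.63 CPM with DMSO at day 2, 11.9 and 12.3 with DMSO at day 4, 44.9 and 36.7 with 552A at day 2 and 50.9 and 48.8 with 552A at day 4. It rose 4.02-fold (log2 2.01 ± 0.11, adjusted p = 6.91e-08) with a wide gap between groups. CDKN1B, which encodes p27, rose 1.65-fold, with 43.9 to 59.8 CPM in the DMSO libraries and 67.6 to 101 in the 552A libraries (log2 0.72 ± 0.09, adjusted p = 9.09e-05), and RB1 1.76-fold (log2 0.82 ± 0.10, adjusted p = 5.04e-05). TP53INP1 and BTG1, which slow proliferation, rose 2.3-fold and 2.22-fold (adjusted p = 2.42e-05 and 0.000181). CDKN1A, which encodes p21, had 0.415 to 1.13 CPM in the DMSO libraries and 0.697 to 1.33 in the 552A libraries and was not called (log2 0.26, adjusted p = 0.561). GADD45A and CDKN2A were the 2 called lower (log2 -0.47 and -0.57). GADD45A was not called without either DMSO library of day 2 or replicate 2 of DMSO at day 4 (adjusted p = 0.0506 to 0.0565). CDKN2A was not called without replicate 2 of DMSO at day 2 or any day 4 library (adjusted p = 0.0638 to 0.118), nor with GC and length offsets (adjusted p = 0.136). In the BCL2 family and death receptor list 9 of 30 were called higher and 1 lower (30% and 3.33%, median 0.06), with 4 lower without replicate 2 of 552A at day 2. BMF, a BH3-only activator of cell death, had 9.12 to 11 CPM without and 20.8 to 38 with the inhibitor (log2 1.41 ± 0.14, adjusted p = 9.82e-06), and BIRC3, an inhibitor of apoptosis, rose 3.54-fold (log2 1.82 ± 0.27, adjusted p = 0.000306). The survival gene BCL2A1 was the member called lower (log2 -1.13, adjusted p = 0.0137), but not without replicate 1 of 552A at day 4, replicate 2 of DMSO at day 2 or replicate 2 of DMSO at day 4 (adjusted p = 0.0604, 0.0625 and 0.057).

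Of 28 genes of cholesterol and fatty acid synthesis 14 were called lower, 3 higher and 11 not at all (median -0.42). That is 50% lower and 10.7% higher, against 9.27% and 12.1% of all genes. Without replicate 1 of 552A at day 4 there were 9 lower calls. SCD, the stearoyl-CoA desaturase, had 228 and 228 CPM with DMSO at day 2, 268 and 263 with DMSO at day 4, 114 and 117 with 552A at day 2 and 91.9 and 95.3 with 552A at day 4. It fell 2.36-fold (log2 -1.24 ± 0.11, adjusted p = 2.94e-06), with no overlap between the groups. SQLE, the squalene epoxidase, had 137 to 182 CPM in the DMSO libraries and 91.6 to 110 in the 552A libraries (log2 -0.59 ± 0.09, adjusted p = 0.00031). DHCR7 fell 1.89-fold (log2 -0.92 ± 0.13, adjusted p = 0.000191). The 3 called higher act in storage or export of cholesterol, SOAT1 (log2 0.85 ± 0.10, adjusted p = 5.57e-05) and the transporters ABCA1 and ABCG1 (log2 1.98 and 0.98). ABCG1 was not called without any 1 of 6 libraries, all but replicate 2 of 552A and replicate 1 of DMSO at day 2 (adjusted p = 0.0981 to 0.17), nor in DESeq2 (adjusted p = 0.0645). Of 21 ATF4 targets 2 were called lower, SHMT2 and WARS (log2 -0.42 and -0.52), and 1 higher, DDIT4, an inhibitor of mTORC1 (log2 1.5 ± 0.17, adjusted p = 4.26e-05). These are 9.52% lower and 4.76% higher, close to and below the shares of all genes (9.27% and 12.1%). There were 6 lower calls without replicate 2 of 552A at day 2. Without replicate 1 of 552A at day 2 or replicate 2 at day 4 there were 4. The call of SHMT2 ended without replicate 1 of 552A at day 4, replicate 2 of DMSO at day 2 or replicate 1 of DMSO at day 4 (adjusted p = 0.0712, 0.0577 and 0.0518).

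The remaining large falls were spread over unrelated functions. PLXNA4, a semaphorin co-receptor, had 7.23 to 9.6 CPM in the DMSO libraries and 1.99 to 3.5 in the 552A libraries (log2 -1.68 ± 0.18, adjusted p = 2.33e-05), and KCNJ12, an inward rectifier potassium channel, 5.25 to 7.04 CPM in the DMSO libraries and 1.29 to 2.66 in the 552A libraries (log2 -1.75 ± 0.22, adjusted p = 7.79e-05). ASS1, which makes argininosuccinate from citrulline and aspartate, had 41.3 and 41.5 CPM with DMSO at day 2, 40.8 and 43 with DMSO at day 4, 16 and 19.3 with 552A at day 2 and 11.8 and 14.7 with 552A at day 4. It fell 2.71-fold (log2 -1.44 ± 0.13, adjusted p = 3.9e-06), with the day 4 treated libraries below those of day 2. WFDC1, a secreted protein with a protease inhibitor domain, fell 2.97-fold (log2 -1.57 ± 0.16, adjusted p = 1.24e-05), the metallothionein gene MT1E 2.94-fold (log2 -1.55 ± 0.15, adjusted p = 1.03e-05), HES6, a helix-loop-helix factor, 2.89-fold (log2 -1.53 ± 0.22, adjusted p = 0.000261) and PRRT4 2.8-fold (log2 -1.49 ± 0.22, adjusted p = 0.000405). Metallothionein genes share sequence, so the count of MT1E is less certain. With IGLL1, S100P, RNASE2 and CTSG these were among the 12 largest falls, which were taken from genes whose groups did not overlap. The retinoic acid response list, read here in cells given no ATRA, had 4 higher and 2 lower calls among 14 genes, against 12.1% and 9.27% of all genes. It had 2 and 1 without replicate 1 of 552A at day 4 or either DMSO library of day 4. Of 12 replication-dependent histone genes 1, HIST1H2BK, was called lower (8.33%, against 9.27% of all genes) and 0 higher. That call ended without replicate 1 of 552A or of DMSO at day 2, replicate 1 of 552A at day 4 or either DMSO library of day 4 (adjusted p = 0.0664 to 0.19). Of 13 mitochondrially encoded genes edgeR called 0, with 2 at an unadjusted p under 0.05, and DESeq2 called 1 lower. The edgeR count was 3 and 2 higher without replicate 2 of DMSO and of 552A at day 4, and 4 and 1 lower without replicate 1 of DMSO and of 552A at day 2.

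The response was present at day 2, and no gene was called for a difference between the days. At day 2, 762 genes were called higher and 146 lower (4.41% and 0.844% of genes tested, 5.25% in all). At day 4, 973 were called higher and 343 lower (5.63% and 1.98%, 7.61% in all). The days share no library, but both tests used a spread estimated over all 8 libraries, so the calls of the days are not independent. At both days 790 genes were called, all in the same direction, which is 87% of the day 2 calls and 60% of the day 4 calls. The test of the difference itself, day 4 minus day 2, called 0 of 17293 genes in edgeR (0%), with 135 at an unadjusted p under 0.05 (0.781%), and 0 in DESeq2. It rests on 2 libraries per group and 4 residual degrees of freedom, so it does not show that the effect was equal at both days. Genes called higher at day 2 had a median of 1.23 there and 1.29 at day 4. IL7R was among those with a numerical rise, from 4.75 ± 0.36 at day 2 to 6.98 ± 0.36 at day 4, a difference of 2.23 ± 0.63 (adjusted p = 1). TCF4 went from 5.01 ± 0.27 to 7.07 ± 0.29 (difference 2.05 ± 0.42, adjusted p = 1) and CXCR4 from 1.92 ± 0.24 to 3.18 ± 0.25 (adjusted p = 1). CD86 had 5.97 ± 0.40 and 5.79 ± 0.39 (adjusted p = 1) and LYZ 3.36 ± 0.24 and 3.27 ± 0.24 (adjusted p = 1). The number of calls at each day moved with single libraries, with 323 and 346 at day 2 without replicates 1 and 2 of DMSO at day 2 and 2242 without replicate 2 of 552A at day 2. At day 4 there were 493 and 540 calls without replicates 1 and 2 of DMSO at day 4, 702 and 840 without replicates 1 and 2 of 552A at day 4, and 2465 and 2316 without replicates 1 and 2 of 552A at day 2. With offsets for GC content and length, 1005 genes were called higher and 700 lower at day 2, and 1375 and 1190 at day 4.

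**Figure D3:**
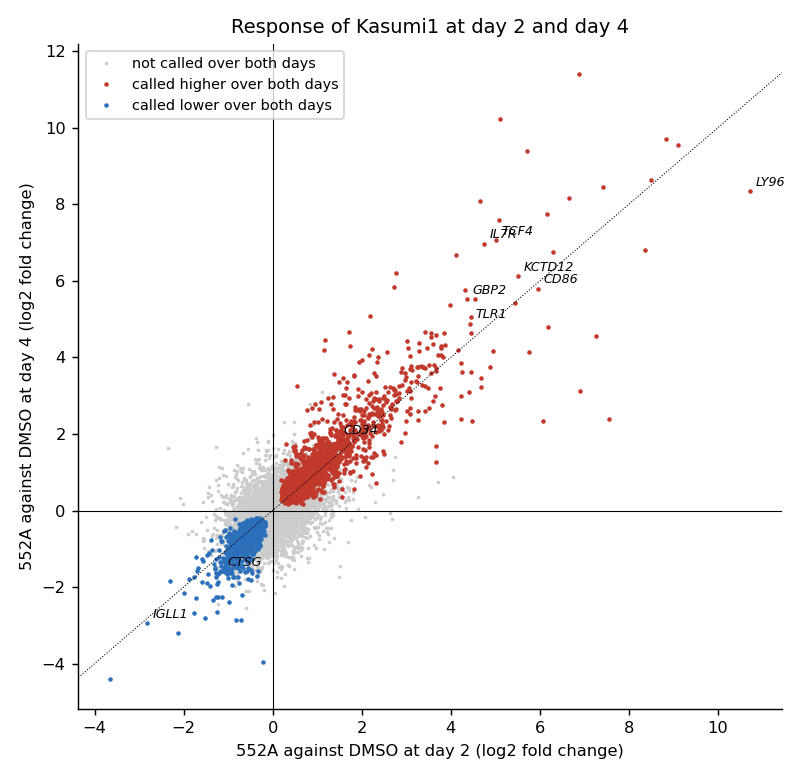
Log2 fold change of each gene tested at day 2 (horizontal) and day 4 (vertical), 552A against DMSO; red and blue points were called higher and lower over both days, grey points were not, and the dotted line marks equal change. Called genes spread along the line, with IL7R and TCF4 above it at 6.98 and 7.07 on the day 4 axis against 4.75 and 5.01 on the day 2 axis.

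The same drug on an ATRA background, in 8 other Kasumi1 libraries, gave a second reading that shares no library with the first. Combo, 1 µM GSK2879552 with 100 nM ATRA, was set against ATRA alone over both days, which called 1022 genes higher and 318 lower of 17240 (5.93% and 1.84%, 7.77% in all). Of the 2093 genes called higher with the inhibitor alone 2061 were tested there, and 2059 had the same sign (99.9%, where 48.7% of all genes tested had a positive sign). Of the 1603 called lower 1597 were tested and 1593 had the same sign (99.7%, against 51.2% of all genes). Of those tested, 949 of the higher genes (46%) and 293 of the lower (18.3%) were called there as well, and 0 in the opposite direction. Median log2 fold changes were 0.73 and 0.70 for the higher genes, alone and on ATRA, and -0.48 and -0.47 for the lower. Differences between replicates 1 and 2 were partly shared across the sets. Those of 552A (day 2, day 4) correlated with ATRA at day 2 at 0.29 and 0.25, and at day 4 at 0.64 and 0.60. With Combo the values were -0.18 and -0.11 at day 2 and 0.53 and 0.65 at day 4. What this adds to the agreement was not tested. With GC and length offsets in both fits, 2260 of 2268 higher and 2710 of 2722 lower genes had the same sign.

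TCF4 had 1.6 and 1.56 CPM with ATRA at day 2, 2.19 and 1.64 with ATRA at day 4, 55.5 and 54.9 with Combo at day 2 and 181 and 141 with Combo at day 4. Its change on ATRA was log2 5.76 ± 0.29 (adjusted p = 3.38e-05), beside log2 6.00 ± 0.32 for the inhibitor alone. CD86 had 0.178 and 0.156 CPM with ATRA at day 2, 0.178 and 0.0482 with ATRA at day 4, 5.68 and 6.72 with Combo at day 2 and 7.2 and 8.09 with Combo at day 4. The change was 5.54 ± 0.31 (adjusted p = 5.29e-05), again with a gap between all libraries with and without the inhibitor. On ATRA, IL7R changed by 6.45 ± 0.50, ITGAM by 2.66 ± 0.24, LYZ by 3.13 ± 0.19, CD34 by 1.92 ± 0.16, PARP14 by 0.98 ± 0.12 and CTSG by -1.36 ± 0.25, with adjusted p from 7.43e-05 (LYZ) to 0.0125 (CTSG). Without replicate 2 of Combo at day 2 the call of CTSG on ATRA ended (adjusted p = 0.0515). Of the 51 interferon-stimulated effectors 23 were called higher and 0 lower on ATRA, and of 34 MYC and ribosome biogenesis genes 11 lower and 0 higher. Of all genes tested there, 5.93% were called higher and 1.84% lower. MYC was not called there (-0.73 ± 0.29, adjusted p = 0.18), nor CEBPE (-0.73 ± 0.46, adjusted p = 0.418), but with GC and length offsets both were (log2 -0.69 and -0.64, adjusted p = 0.0158 and 0.0243). One library, replicate 1 of Combo at day 4, had a GC slope of -0.68. Without it 1554 genes were called higher and 795 lower on ATRA, and 2040 of 2076 higher and 1556 of 1600 lower genes had the same sign. Without any 1 of the 4 ATRA libraries or the 2 day 2 Combo libraries, 602 to 727 genes were called in all.

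**Figure D4:**
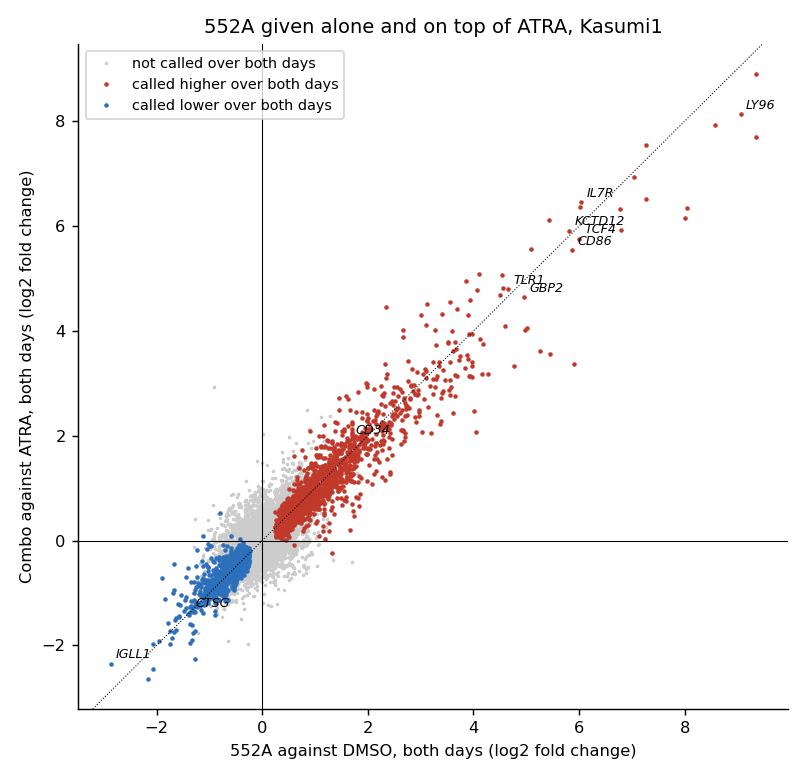
Log2 fold change of each gene for the inhibitor alone against DMSO (horizontal) and for Combo against ATRA (vertical) in Kasumi1, both days; colours show calls for the inhibitor alone and the dotted line equal change. Nearly all red points lie above 0 and nearly all blue points below 0 on the vertical axis, with TCF4 at 6.00 and 5.76 and IGLL1 at -2.87 and -2.35.

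Compared with the mean 552A effect in the other 5 lines, 498 of 22953 genes differed in Kasumi1, 376 above the mean and 122 below (1.64% and 0.532%). The test used the 48 DMSO and 552A libraries of the 6 lines in a single fit, so it speaks of these lines only. Without replicate 2 of 552A, replicate 1 of DMSO or replicate 2 of DMSO at day 4, 327, 327 and 330 genes differed. TCF4 had a log2 fold change of 0.01 to 0.65 in the other lines and 6.09 in Kasumi1 in that fit (difference 5.71 ± 0.25, adjusted p = 3.55e-16). IL7R had -1.21 to 0.27 elsewhere and 5.91 in Kasumi1 (difference 6.21 ± 1.15, adjusted p = 0.0011). In neither gene did another line come within 5 log2 units of Kasumi1. GBP2 (3.88 ± 0.44), KCTD12 (3.62 ± 0.25), A2M (3.5 ± 0.34) and LGALS1 (3.25 ± 0.43) completed the 6 largest differences upward (adjusted p from 7.08e-11 to 8.8e-06). KCTD12 had positive values in the other lines too, from 0.71 (OCIAML3) to 4.13 (MV411).

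The largest differences downward included 5 genes with higher values in the other lines. DTX4, a Notch pathway ubiquitin ligase, had 8.05 to 10.3 CPM in the DMSO libraries and 7.99 to 12 in the 552A libraries and was not called in Kasumi1 (log2 0.11, adjusted p = 0.632), while its log2 fold change was 1.74 to 4.14 elsewhere (difference -2.76 ± 0.29, adjusted p = 1.85e-07). STS, the steroid sulfatase, had 2.26 to 3.85 CPM in the DMSO libraries and 2.17 to 3.56 in the 552A libraries and was not called either (adjusted p = 0.749), against 1.33 to 4.30 elsewhere (difference -2.53 ± 0.29). PLXDC2 and CLEC5A were already at 71.1 to 76.2 CPM and 245 to 301 CPM in the DMSO libraries, and had log2 0.25 and 0.36 in Kasumi1 against means of 2.54 and 2.67 elsewhere. With offsets for GC content and length PLXDC2 was at log2 0.00 in Kasumi1, and its own call ended without any library but the 2 of 552A at day 2 (adjusted p = 0.0578 to 0.148). That of CLEC5A ended without replicate 1 of DMSO at day 2 (adjusted p = 0.0641). ADAMTS4, an aggrecanase, fell in Kasumi1 (log2 -1.06 ± 0.21, adjusted p = 0.00289) and had 0.02 to 1.08 elsewhere (difference -1.72 ± 0.30).

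By list, 10 of 56 interferon-stimulated effectors and 8 of 27 pattern recognition genes were called above the mean of the other lines, and 0 and 1 below (1.64% and 0.532% of all genes). Single other lines rose too. Of 22953 genes tested per line, 1377 were called higher and 280 lower in Kasumi1, and 1525 and 830 in THP1. The counts were 791 and 219 in HL60, 727 and 215 in MOLM13, 1286 and 980 in MV411, and 937 and 523 in OCIAML3. Pattern recognition genes had 13 higher calls in Kasumi1 (median 0.59), 16 in THP1 (median 1.19) and 8 to 10 in each remaining line. The effectors had 23 higher and 0 lower calls in Kasumi1 (median 0.73), 8 and 0 in HL60 (0.43) and 10 and 1 in THP1 (0.41). In MOLM13, MV411 and OCIAML3 they had 2, 9 and 7 higher and 2, 5 and 5 lower calls. Myeloid surface markers had 3 of 40 calls in each direction, and the change of ITGAM (-0.59 ± 0.26, adjusted p = 0.398) and LYZ (-0.25 ± 0.19, adjusted p = 0.85) was not called as different from the mean of the other lines. Without the line MOLM13 or MV411 that of LYZ was called lower (adjusted p = 0.0482 and 0.0124). CD86 was above the mean of the other lines (2.20 ± 0.47, adjusted p = 0.00573). That difference was smaller than its rise in Kasumi1 (log2 5.88), so the mean of the other lines was positive as well. Also above that mean were TNFRSF10B (1.71 ± 0.14, adjusted p = 1.93e-09), IRF4 (4.22 ± 0.45, adjusted p = 2.23e-07) and IRF8 (1.32 ± 0.17, adjusted p = 5.17e-06). The call of CD86 ended without replicate 1 of DMSO at day 4 (adjusted p = 0.0687) and without the line MOLM13 (adjusted p = 0.066).

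**Figure D5:**
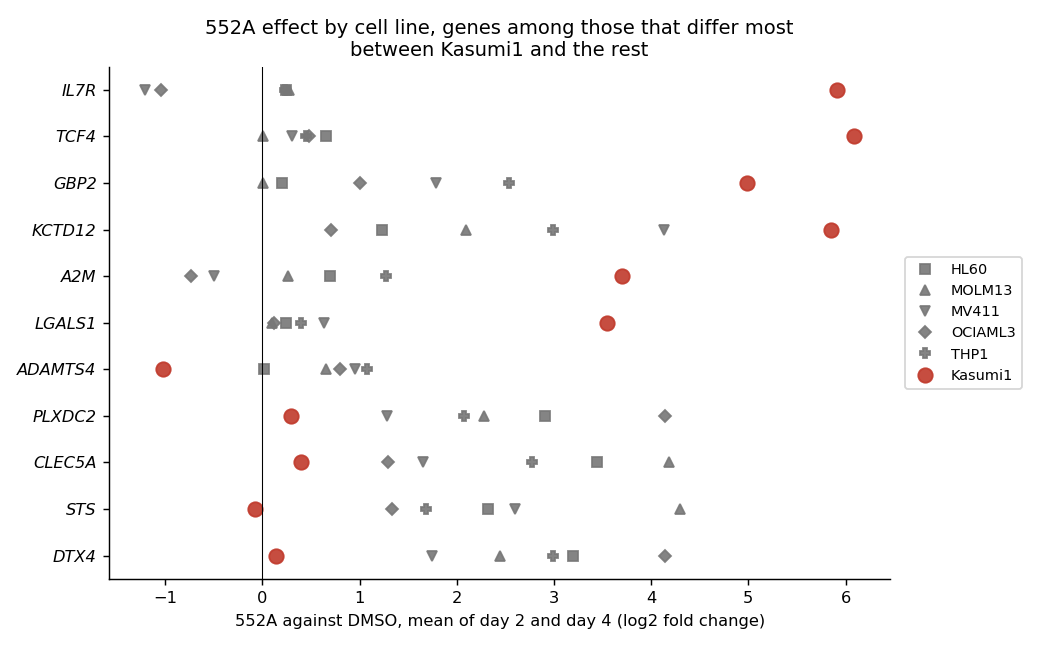
Log2 fold change of 552A against DMSO, mean of day 2 and day 4, in each of the 6 lines (1 marker shape per line, Kasumi1 in red) for genes among those that differ most between Kasumi1 and the mean of the rest. TCF4 and IL7R stand at 6.09 and 5.91 in Kasumi1 with no other line above 0.65, and DTX4 and STS stand at 0.14 and -0.08 in Kasumi1 with every other line above 1.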

How the data were processed

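RNA-seq gene counts were deposited as 1 table of whole-number counts per gene and library, which the authors made with Trimmomatic 0.36, STAR 2.4.2a, HTSeq 0.6.0 and build GRCh38, per the submitters' processing notes. The annotation release and the strand setting are not given in the sources used here. Counts of overlapping or antisense genes, and of close paralogs, are therefore less certain. Names and coordinates came from GENCODE 29 by gene identifier (56994 of 60552 entries matched; 3508 unmatched entries held 0.0337% of the counts).

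Counts were fitted with edgeR 4.0.16 (R 4.3.3, limma 3.58.1): filterByExpr, TMM factors, the quasi-likelihood test and Benjamini-Hochberg adjustment over all genes tested, called at 0.05. Groups came from the labels. 552A was compared with DMSO with day as a factor, at each day, between days, and against the mean of the other 5 lines, and Combo with ATRA. Adjusted p-values in the text are from these fits; errors after ± are standard errors of log2 fold changes, and counting intervals cover counting error only. CPM used TMM-adjusted sizes. The scripts were tested on simulated counts. Alternatives were DESeq2 1.42.0, RLE factors, no filter, a replicate block, offsets for GC content and length, each library left out, and a fit of all 16 Kasumi1 libraries. Analyses omitting libraries with an outlying GC trend were chosen after seeing the data.

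Named genes were the 12 largest rises and falls among called protein-coding genes whose groups did not overlap and whose log2 CPM averaged 1 or more, the 6 largest line differences each way, up to 5 members of each list by p, and a fixed set of LSD1, myeloid and cycle genes. Members named to account for short counts, and GBP1, OAS1, IFNB1, EPCAM, CSF3R and ELANE, were chosen after their values were seen. Members and lists were chosen with earlier results of these data known. Some genes that meet these rules are not reported here.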

Additional observations from a re-analysis of the deposited data

Results flagged for a closer look

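The 552A effect in Kasumi1 differed from the mean of the other 5 lines in 498 genes, by the test of that difference in 1 edgeR fit of 48 libraries. On the log2 scale the differences upward were 6.21 for IL7R, 5.71 for TCF4, 3.88 for GBP2, 3.62 for KCTD12, 3.5 for A2M and 3.25 for LGALS1. Those downward were -1.72 for ADAMTS4, -2.25 for PLXDC2, -2.26 for CLEC5A, -2.53 for STS and -2.76 for DTX4.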

How the results depend on the processing

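Call numbers moved more than directions. Leaving out 1 library gave 2332 to 4739 calls over both days, 323 to 2242 at day 2, 493 to 2465 at day 4, 327 to 451 for Kasumi1 against the other lines and 602 to 2349 for Combo against ATRA. Without replicate 1 of DMSO at day 4 the both-day calls were 2332, without replicate 1 of 552A at day 4 2421, and without replicate 2 of DMSO at day 4 2458. The fit of all 16 Kasumi1 libraries called 1994, and ended the calls of CCL5, CDC20, CEBPA, CEBPE, CLEC5A, CSF2RB, HIST1H2BK, HLA-B, IGFBP7, IKBKE, IRF7, KIF11, LMO2, MCM2, MCM7, MTA2, MYC, PLXDC2, PRSS57, PRTN3, PSD3, RFXANK, S100A4, SELPLG, SHMT2, TRIB1 and VEGFA (adjusted p = 0.0538 to 0.567). Offsets for GC content and length called 1705 genes at day 2, 2565 at day 4, 1480 for the line difference (841 higher, 639 lower, against 376 and 122) and 4715 for Combo against ATRA (2191 higher, 2524 lower). DESeq2 called 801 for the line difference and 2199 for Combo. With no filter Combo had 2155 calls and the day difference 9. Of the 3696 both-day calls, 1964 to 3693 were kept in their direction under the alternatives; 1 gene changed sign under the GC offsets, and PLXDC2 was at 0.00 with the offsets (adjusted p = 0.994) and with the offsets and block (adjusted p = 0.976).

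The replicate numbers were not taken to pair the libraries: deviations of same-numbered libraries correlated at 0.04 to 0.37 between the 4 groups of 552A and DMSO. Over pairs with an ATRA or Combo group of Kasumi1 the values ran from -0.51 to 0.83. The replicate block gave 4180 calls over both days, 1115 at day 2, 1603 at day 4, 0 for the day difference, 618 for the line difference and 1526 for Combo. The block with GC and length offsets gave 5592, 2141, 2983, 0 and, for Combo, 5389. The cause of these shifts was not tested. Replicates differed by more than sampling noise, and the part of depth in the number of calls was not tested; genes below the filter were not tested.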
